A study of Mus musculus with 8 samples.

Results

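The miR-23, miR-27 and miR-24 family was measured in embryonic mouse footpad skin with and without a conditional deletion of Dicer, the enzyme that cuts precursor hairpins into mature miRNAs. Its members were the 5 mature miRNAs mmu-miR-23a-3p, mmu-miR-27a-3p, mmu-miR-24-3p, mmu-miR-23b-3p and mmu-miR-27b-3p (written below without the species prefix), taken by name from the array, of 1881 mouse miRNAs on it. Each member had 2 probes, 10 in all. All 5 were detected on all 8 arrays, so none passed the detection filter through 1 group alone. The data were 8 single-colour arrays that made up 4 groups of 2. The groups were wild type (WT) and Dicer conditional knockout (cKO) embryos of 2 ages in days of gestation, E16.5 and E17.5, all on a C57BL6 background. Each array carried Cy3-labelled RNA from the pooled footpads of 3 to 5 embryos, extracted with small RNA enriched. A p-value therefore measures the spread between pools, and the small number of arrays limits its precision. The Cre line that deletes Dicer, and the cells in which it acts, are not given in the sources used here.

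The members come from a pair of paralogous clusters, each of which is transcribed as 1 precursor holding a miR-23, a miR-27 and a miR-24 hairpin. Although the hairpins of a cluster share a transcript, their mature levels can still differ through processing and turnover. miR-23 and miR-27 are known for their roles in endothelial sprouting, miR-27 also for restraining fat cell differentiation, and miR-24 for a role in keratinocyte differentiation in skin. Dicer is needed to make the mature form of each of them.

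The mature sequences show what the family shares and how closely its paralogs match. They are given 5′ to 3′ from the RefSeq table of GRCm38.p6, in which 4 of the 5 members were matched, and capitals mark the seed (bases 2 to 8), the part that pairs with targets.
miR-23a-3p: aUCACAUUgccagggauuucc
miR-27a-3p: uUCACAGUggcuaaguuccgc
miR-27b-3p: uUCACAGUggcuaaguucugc
miR-24-3p: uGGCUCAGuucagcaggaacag
These 4 sequences carry 3 different seeds. miR-27a-3p and miR-27b-3p share their seed and differ in 1 base, C19U, counted from the 5′ end. miR-24-3p is encoded by 2 loci, Mir24-1 and Mir24-2, and the array cannot separate the copies. Of the other miRNAs in the table, 4 have the miR-24 seed (miR-5124b, miR-6369, miR-6410 and miR-6413). All 4 were on the array and 0 of them were detected widely enough to be tested.

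The probes show on how little sequence the paralogs are told apart. The brighter probe of each member is given 5′ to 3′ as in the deposited files. Capitals mark the base at position 3, counted from the probe's 5′ end, at which the probes of a paralog pair differ.
miR-23a-3p: ggAaatccctggcaatgt
miR-23b-3p: ggTaatccctggcaatg
miR-27a-3p: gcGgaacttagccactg
miR-27b-3p: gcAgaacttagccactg
miR-24-3p: ctgttcctgctgaactga
Over 17 compared bases, the probe for miR-23a-3p differs from that for miR-23b-3p by A3T alone. The probe for miR-27a-3p differs from that for miR-27b-3p by G3A alone. Binding of a paralog to the other's probe was not tested.

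The deposited files place the probe targets on mm9. miR-23a-3p lies at chr8:86732466-86732482, miR-27a-3p at chr8:86732631-86732646 and 1 copy of miR-24-3p at chr8:86732778-86732795, so that this cluster spans 330 bases. miR-23b-3p lies at chr13:63401842-63401857, miR-27b-3p at chr13:63402073-63402088 and the other copy of miR-24-3p at chr13:63402563-63402580, over 739 bases. All hairpins lie on the plus strand. In the RefSeq gene table, Mir23b, Mir27b and Mir24-1 lie within Aopep, a protein-coding gene, and Mir24-1 also lies within the miRNA gene Mir3074-1. The hairpins of the chromosome 8 cluster lie within no other annotated gene. Partial overlap with a gene was not examined, and the strand of a containing gene was not compared with that of the hairpin.

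The arrays as a whole set the background for these values. Signals were divided by each array's 75th percentile over the 474 probes detected on every array, and "log2 signal" below is the log2 of that relative signal. Of 385 tested miRNAs, cKO against WT over both stages gave 56 lower and 176 higher calls, and the median over these 385 changes was 0.17. With positive control probes as the scale the split was 256 lower and 6 higher with a median of -0.25, and without scaling 54 lower and 6 higher with a median of -0.09. All 11 miRNAs of a skin epithelium list were lower in cKO (median change -2.19). Their summed relative signal was 27.4 to 32.3 on the WT arrays and 2.85 to 4.32 on the cKO arrays, with 2 of them (miR-183-5p and miR-203-5p) detected on no cKO array. In whole skin, fewer cells of a type and less RNA per cell cannot be told apart. All arrays lay on 1 slide with a column per group, so the position on the slide and the group cannot be told apart.

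Every member stayed well above background in the Dicer cKO, and the members differed in how far they fell. Over both stages 4 of the 5 members were lower in cKO than in WT (limma, Benjamini-Hochberg adjusted p under 0.05), where 14.5% of all tested miRNAs were called lower. miR-27a-3p had the largest difference of the 5, miR-24-3p, miR-23a-3p and miR-27b-3p had smaller ones, and miR-23b-3p did not pass the test. The median difference of the members was -0.20 on the log2 scale, against 0.17 over all tested miRNAs. Relative to that shift of all tested miRNAs, the differences were -0.68 for miR-27a-3p, -0.40 for miR-24-3p, -0.36 for miR-23a-3p, -0.31 for miR-27b-3p and -0.13 for miR-23b-3p.

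**Figure D1:**
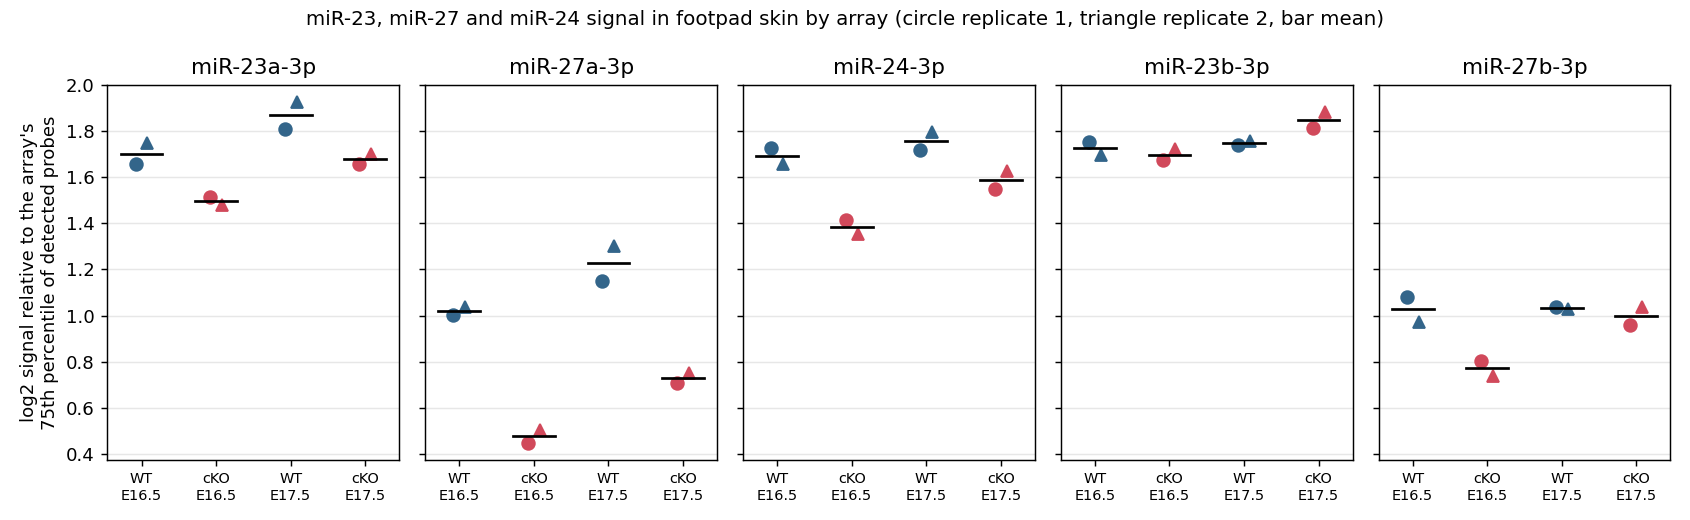
Log2 signal of each member on each array (y axis, relative to the array's 75th percentile over detected probes) in the 4 groups, WT in blue and cKO in red, with circles for replicate 1, triangles for replicate 2 and bars for the mean of 2 arrays. For miR-27a-3p the cKO arrays lie between 0.45 and 0.75 and the WT arrays between 1.00 and 1.30, while for miR-23b-3p the genotypes lie side by side.

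miR-27a-3p, of the chromosome 8 cluster, stood furthest apart. At E16.5 its log2 signal was 1.00 and 1.04 in the WT arrays and 0.45 and 0.50 in the cKO arrays. At E17.5 the WT arrays read 1.15 and 1.30 and the cKO arrays 0.71 and 0.75. All cKO arrays lay below all WT arrays in this scaled signal, at both stages together as well as within each. In unscaled signal, replicate 2 of WT E16.5 (583) lay below both cKO E17.5 arrays (665 and 632). Over both stages the log2 difference was -0.52 ± 0.040 (SE, 4 arrays per genotype; limma adjusted p = 3.4e-04), a 1.43-fold lower signal with a 95% interval on the log2 scale from -0.62 to -0.42. It was -0.54 ± 0.056 at E16.5 (adjusted p = 0.00165, limma) and -0.50 ± 0.056 at E17.5 (adjusted p = 0.00191, limma). Of all 385 tested miRNAs, 25 had a more negative difference over both stages. This member was called lower over both stages under all 6 scalings tried, with differences from -1.004 to -0.48.

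miR-24-3p, which both clusters encode, was the other member whose cKO arrays all lay below all WT arrays. A complete separation in that direction held for 11.2% of tested miRNAs. It too held in scaled signal only: unscaled, replicate 2 of WT E16.5 (897) lay below both cKO E17.5 arrays (1192 and 1160). Its log2 signal at E16.5 was 1.73 and 1.66 in WT and 1.41 and 1.35 in cKO. The E17.5 arrays gave 1.72 and 1.80 in WT and 1.55 and 1.63 in cKO. The WT arrays stayed within a narrow band at both stages, and the E17.5 cKO arrays came closest to them. The difference over both stages was -0.24 ± 0.034 (limma adjusted p = 0.00287), a 1.18-fold lower signal, and it was called under all 6 scalings (-0.72 to -0.19). Since its 2 loci give the same mature sequence, the share of either cluster in this difference cannot be read from the array.

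miR-23a-3p, the first miRNA of the chromosome 8 cluster, was lower in cKO at each stage, but its E17.5 cKO arrays overlapped the E16.5 WT arrays. At E16.5 its log2 signal was 1.66 and 1.75 in WT and 1.52 and 1.48 in cKO. Its E17.5 values were 1.81 and 1.93 in WT and 1.66 and 1.70 in cKO. Over both stages the difference was -0.20 ± 0.036 (limma adjusted p = 0.00741), a 1.15-fold lower signal, called under all 6 scalings (-0.68 to -0.19).

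miR-27b-3p, the chromosome 13 paralog of miR-27a-3p, was lower in cKO over both stages by less than its paralog. Its log2 signal at E16.5 was 1.08 and 0.97 in WT and 0.80 and 0.74 in cKO, with no overlap. By E17.5 the values were 1.04 and 1.03 in WT and 0.96 and 1.04 in cKO, and the groups overlapped. The difference over both stages was -0.14 ± 0.035 (limma adjusted p = 0.0181), a 1.11-fold lower signal. Its call was lost under 2 scalings, at -0.45 without scaling (limma adjusted p = 0.0834) and -0.42 with the 75th percentile over all probes (limma adjusted p = 0.11). It was also lost without replicate 2 of cKO E16.5, replicate 1 of cKO E17.5 or either WT E17.5 array (limma adjusted p from 0.0531 to 0.0589).

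miR-23b-3p, the chromosome 13 paralog of miR-23a-3p, did not pass the test over both stages. At E16.5 its log2 signal was 1.75 and 1.70 in WT and 1.67 and 1.72 in cKO, and the groups overlapped. The E17.5 signal was 1.74 and 1.76 in WT and 1.81 and 1.88 in cKO, with both cKO arrays above both WT arrays, as for 55.3% of tested miRNAs. The difference over both stages was 0.04 ± 0.025 (limma adjusted p = 0.272), with a 95% interval from -0.03 to 0.10. Its sign followed the scaling: it was below 0 under 4 of the 6 scalings and was called lower under 1, that by positive control probes (-0.45). Over the 8 arrays its log2 signal had an SD of 0.067, smaller than that of all but 9.35% of tested miRNAs, against an SD of 0.308 for miR-27a-3p, where 83.9% of tested miRNAs had a smaller one.

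**Figure D2:**
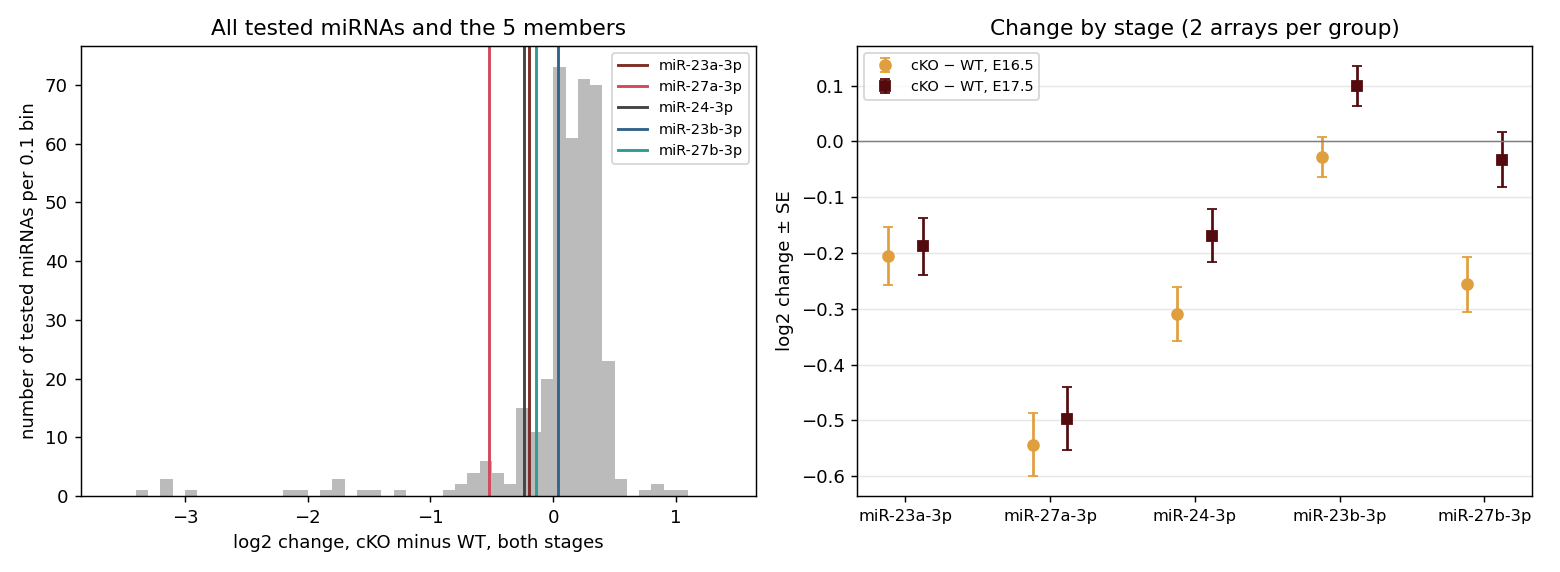
Left, the distribution of log2 change (x axis, cKO minus WT over both stages) of the 385 tested miRNAs in bins of 0.1, with a vertical line for each member; miR-27a-3p at -0.52 lies left of the bulk of miRNAs and miR-23b-3p at 0.04 lies within it. Right, each member's log2 change ± SE at E16.5 and at E17.5 (2 arrays per group), where miR-27b-3p was -0.26 at E16.5 and -0.03 at E17.5.

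Within each stage, too, miR-27a-3p had the lowest and miR-23b-3p the highest difference. At E16.5, 4 of the 5 members were lower in cKO (15.1% of tested miRNAs were called lower): miR-27a-3p, miR-24-3p at -0.31 ± 0.048, miR-27b-3p at -0.26 ± 0.049 and miR-23a-3p at -0.21 ± 0.051, while miR-23b-3p differed by -0.03 ± 0.036 (limma adjusted p = 0.559). In these 4 members, both cKO arrays lay below both WT arrays, as for 19.2% of tested miRNAs. At E17.5, 3 members were lower (10.1% of tested miRNAs were called lower): miR-27a-3p, miR-23a-3p at -0.19 ± 0.051 and miR-24-3p at -0.17 ± 0.048, and the cKO arrays of these 3 lay below the WT arrays, as for 18.4% of tested miRNAs. At that stage miR-27b-3p differed by -0.03 ± 0.049 (limma adjusted p = 0.675) and miR-23b-3p by 0.10 ± 0.036 (limma adjusted p = 0.0768).

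Whether the effect of the knockout differed between the stages was tested directly. It did so for 0 of the 5 members by limma, where 1.56% of tested miRNAs were called. At an unadjusted p under 0.05 the sole member was miR-27b-3p, whose difference of differences was 0.22 ± 0.070 (limma adjusted p = 0.122). For miR-23a-3p it was 0.02 ± 0.073 and for miR-27a-3p 0.05 ± 0.079, and the sign of both turned with the scaling. At E16.5 the call of miR-23a-3p was lost without replicate 2 of WT E16.5 or any 1 of the 4 cKO arrays. At E17.5 the calls fell from 3 to 1 without replicate 2 of WT E17.5 or any 1 of the 4 cKO arrays and to 2 without replicate 1 of WT E17.5, and with the replicate number as a block miR-24-3p was not called (limma adjusted p = 0.0694); miR-27a-3p kept its call in each. Without scaling between arrays, 0 members were called at E16.5 and miR-27a-3p alone at E17.5. At E17.5 miR-23b-3p was called higher in cKO with quantile normalization (0.09, limma adjusted p = 0.0265) and lower with positive control probes (-0.55, limma adjusted p = 1.72e-04), so it has no settled direction.

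The paralogs can also be compared within an array, where the scale of that array cancels. A ratio of 2 probes does not give relative amounts of the miRNAs. Its shift between genotypes compares the changes of the 2 probe signals, and binding of a paralog to the other's probe was not tested. The log2 ratio of miR-23a-3p to miR-23b-3p was -0.10 and 0.05 in WT and -0.16 and -0.24 in cKO at E16.5. The E17.5 ratios were 0.07 and 0.17 in WT and -0.16 and -0.18 in cKO. Every cKO array lay below every WT array. The mean was -0.18 ± 0.041 in cKO and 0.05 ± 0.11 in WT (SD, n = 4), a difference of -0.23 (exact permutation test, two-sided, p = 0.0286, the smallest that the 70 arrangements allow).

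The ratio of miR-27a-3p to miR-27b-3p moved in the same direction and further. At E16.5 it was -0.08 and 0.06 in WT and -0.36 and -0.24 in cKO on the log2 scale. At E17.5 the ratio stood at 0.11 and 0.27 in WT and -0.25 and -0.29 in cKO, again with no overlap of the genotypes. The mean was -0.28 ± 0.053 in cKO and 0.09 ± 0.15 in WT (SD, n = 4), a difference of -0.38 (exact permutation test, two-sided, p = 0.0286, again the smallest possible). Permuting within each stage gave p = 0.0556 for both ratios in the exact test, the smallest that its 36 arrangements allow. With 4 ratio tests, the Benjamini-Hochberg adjusted exact permutation p was 0.0571 for both over all arrays and 0.111 within stage, so neither passed 0.05 after adjustment. The signals of miR-23a-3p and miR-27a-3p were thus lower relative to their chromosome 13 paralogs on all 4 cKO arrays than on any WT array. This number of arrays allows no smaller p. How often the ratio of other miRNA pairs separates the genotypes in this way was not computed.

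**Figure D3:**
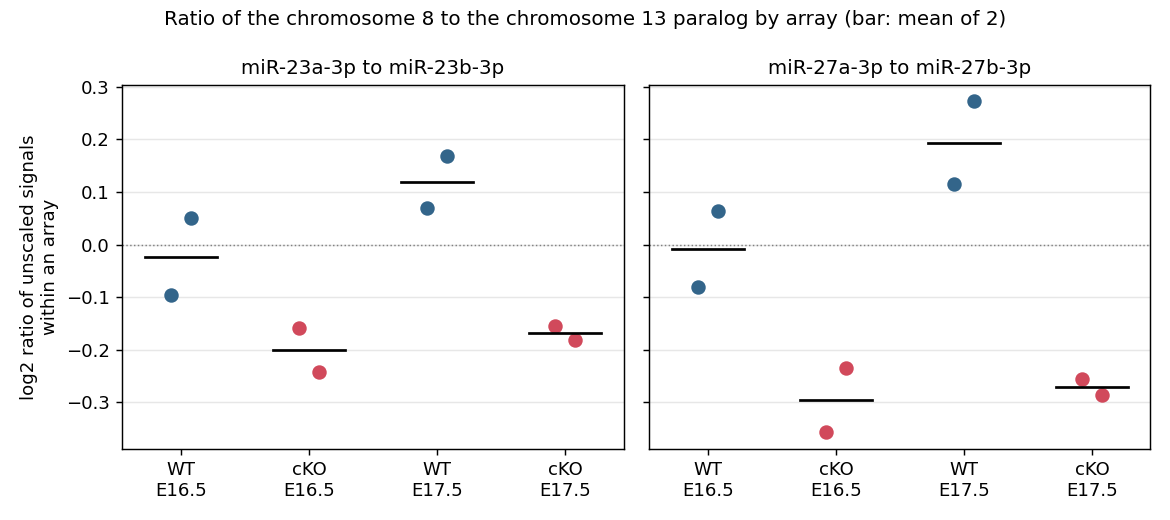
Log2 ratio of unscaled signals within each array (y axis) of the chromosome 8 miRNA to its chromosome 13 paralog, for miR-23 (left) and miR-27 (right), with WT in blue, cKO in red and a bar for the mean of 2 arrays. In both panels the 4 cKO arrays lie below the 4 WT arrays, with means of -0.18 against 0.05 and of -0.28 against 0.09.

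The second probe of each member, 1 base shorter, was fitted among 719 probes, of which 60.8% were called in either direction over both stages. For miR-27a-3p it gave -0.61 ± 0.042, against -0.52 for the brighter probe. For miR-24-3p it gave -0.27 ± 0.020 and for miR-23a-3p -0.14 ± 0.033, all lower in cKO (limma adjusted p under 0.05 over all probes). The probes of miR-27b-3p disagreed on the call, with -0.14 ± 0.035 (limma adjusted p = 0.0173) and -0.10 ± 0.037 (limma adjusted p = 0.0601). Neither probe of miR-23b-3p was called, at 0.04 ± 0.025 and 0.02 ± 0.024. With the mean over all detected probes, the shift of the miR-23 ratio was -0.20 (exact permutation p = 0.0571) and that of the miR-27 ratio -0.44 (exact permutation p = 0.0286).

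From E16.5 to E17.5 the chromosome 8 members changed by similar amounts in both genotypes with the scale of detected probes. The values were 0.21 in WT and 0.25 in cKO for miR-27a-3p, and 0.17 and 0.18 for miR-23a-3p. With positive control probes the change of miR-23a-3p was 0.58 in WT and 0.27 in cKO, and with quantile normalization 0.21 and 0.11. The test of a difference between the genotypes in this change called 0 of the 5 members, so the calls below do not show that the genotypes differ. In WT, 0 of the 5 passed the limma test, where 14.8% of tested miRNAs were called in either direction. The calls in WT depended on the scaling: all 5 members were called higher at E17.5 without scaling (0.61 to 0.81) and with positive control probes (0.42 to 0.62), where the median over all tested miRNAs was 0.47 and 0.31. With the scale of detected probes used elsewhere here, the WT differences, E17.5 minus E16.5, were 0.21 ± 0.056 for miR-27a-3p (limma adjusted p = 0.0673), 0.17 ± 0.051 for miR-23a-3p (limma adjusted p = 0.0892), 0.07 ± 0.048 for miR-24-3p, 0.03 ± 0.036 for miR-23b-3p and 0.0050 ± 0.049 for miR-27b-3p. The first 2 named belong to the chromosome 8 cluster, and at an unadjusted p under 0.05 they alone of the 5 differed. With the replicate number as a block miR-27a-3p was called in WT (limma adjusted p = 0.0382), and likewise without replicate 1 of WT E17.5 (limma adjusted p = 0.0457).

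In cKO all 5 members were higher at E17.5 than at E16.5 by limma, where 15.1% of tested miRNAs were called higher. The rise was 0.25 ± 0.056 for miR-27a-3p (limma adjusted p = 0.0265), 0.23 ± 0.049 for miR-27b-3p, 0.21 ± 0.048 for miR-24-3p, 0.18 ± 0.051 for miR-23a-3p and 0.15 ± 0.036 for miR-23b-3p (limma adjusted p = 0.0309). The median over all tested miRNAs was 0. These calls were lost in full (0 of 5) without any 1 of the 4 cKO arrays, and 1 remained without either WT E17.5 array. No call passed without scaling (limma adjusted p from 0.0569 to 0.0768) or with the 75th percentile over all probes (limma adjusted p from 0.178 to 0.216), although the rises themselves were larger there, at 0.59 to 0.70 and 0.42 to 0.53, with larger standard errors. The comparisons share arrays with those between genotypes, so the rise in cKO and the smaller E17.5 difference of miR-27b-3p are not separate evidence. The ratios of the paralogs did not pass a test between stages, with E17.5 minus E16.5 at 0.09 for miR-23 (exact permutation p = 0.4) and 0.11 for miR-27 (exact permutation p = 0.486).

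Ordered by mean log2 signal, miR-27a-3p went from 0.48 in cKO E16.5 to 0.73 in cKO E17.5, 1.02 in WT E16.5 and 1.23 in WT E17.5, of which the WT neighbours did not differ beyond the test. miR-24-3p had the same order, from 1.38 to 1.59, 1.69 and 1.76, and its WT groups overlapped. For miR-23a-3p, cKO E17.5 (1.68) and WT E16.5 (1.70) were neighbours whose arrays overlapped, between 1.497 in cKO E16.5 and 1.87 in WT E17.5. For miR-27b-3p, cKO E16.5 (0.77) stood below the other groups, which lay at 1.00 to 1.03. For miR-23b-3p, cKO E17.5 stood highest at 1.85 above the other groups at 1.70 to 1.75. These orders are those of the scaled values. In mean unscaled signal miR-27a-3p kept its order, but miR-23b-3p was highest in WT E17.5 (1722, against 1409 in cKO E17.5). Unscaled, miR-24-3p and miR-23a-3p changed their order. Their cKO E17.5 means (1176 and 1254) lay above those of WT E16.5 (1106 and 1104). The mean unscaled signal of miR-27b-3p was 700 in WT E16.5, 782 in cKO E17.5 and 1047 in WT E17.5.

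**Figure D4:**
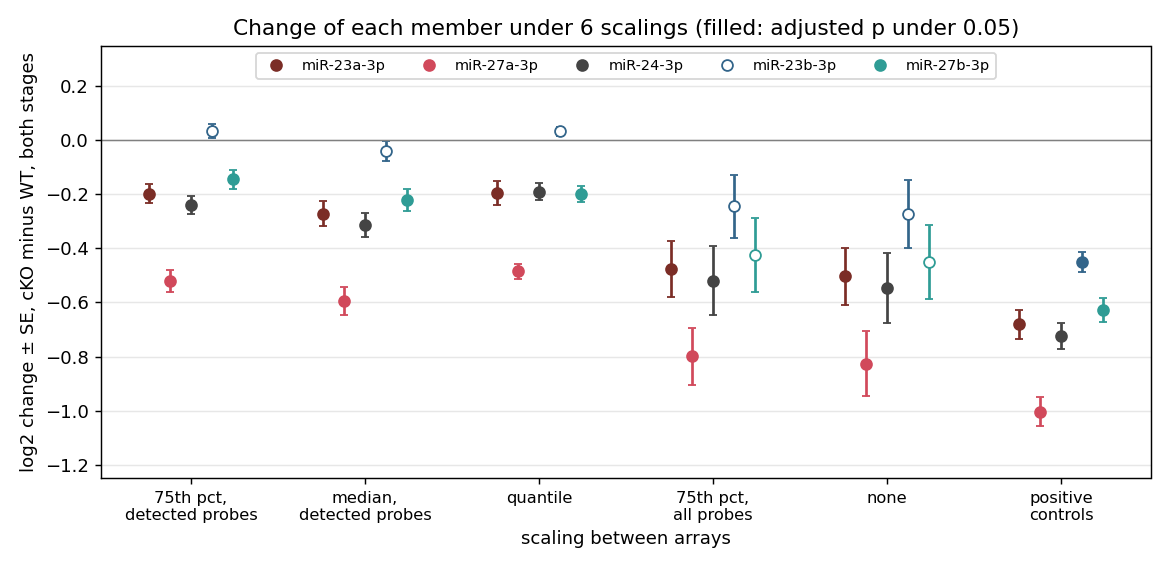
Log2 change ± SE of each member (y axis, cKO minus WT over both stages) under the 6 ways of scaling the arrays (x axis); filled points had a limma adjusted p under 0.05 and open points did not. miR-27a-3p is the lowest member under each scaling (-1.004 to -0.48) and miR-23b-3p the highest (-0.45 to 0.04). Every scaling but quantile normalization keeps the gaps between members by construction.

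Over both stages miR-27a-3p was the lowest and miR-23b-3p the highest member under all 6 scalings. All scalings but quantile normalization divide an array by a single value, which keeps the gaps between members. Only quantile normalization could therefore change their order, and it did so for the members between miR-27a-3p and miR-23b-3p. The distance of the whole family from 0 depended on the scale. The 5p arms of the members' hairpins, and the miR-3074 miRNAs that map to the miR-24 loci, were mostly undetected. Of these 9 further miRNAs, covered by 24 probes, 8 were not detected on any array. The exception was miR-24-2-5p, the passenger arm of the chromosome 8 copy of miR-24, which was well above background on both WT E17.5 arrays alone. It was detected in that group alone, in which it was brightest, so its detection is no separate support for a difference. Its unscaled signal there was 24.1 and 27.0, against 15.4 and 14.8 in cKO E17.5, 14.5 and 12.5 in WT E16.5 and 7.74 and 4.79 in cKO E16.5. Relative to the array's scale the means were closer, at 0.0498 in WT E17.5, 0.0386 in cKO E17.5 and 0.0402 in WT E16.5. Against cKO E17.5, where the probe was not well above background, it was at least 1.23-fold higher in WT, with a bound taken per array from the dimmest detected probe, and against WT E16.5 the same bound gave no fold. All its scaled values were below the floor of the fit, which gave an adjusted p of 1 (limma).

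The miRNAs outside these loci with the most similar profiles were found by the root mean square difference of log2 values over the 8 arrays, each profile centred on its mean, among 379 miRNAs. This is a description of likeness and says nothing of shared function. miR-27a-3p was nearest to miR-193a-3p (0.0849) and miR-365-3p (0.0985), which differed between genotypes by -0.68 ± 0.024 and -0.65 ± 0.030 over both stages. miR-24-3p was nearest to let-7d-5p (0.0277) and miR-21a-5p (0.0347), at -0.28 ± 0.037 and -0.26 ± 0.047, and these were also the nearest to miR-23a-3p (0.0787 and 0.0812). miR-27b-3p was nearest to miR-28a-5p (0.0367), a dim miRNA that was not detected on replicate 2 of either E16.5 group, and let-7g-5p (0.0480). miR-23b-3p was nearest to miR-142a-5p (0.0347), whose value was the floor on every array but those of cKO E17.5 and so carries no pattern, and to miR-30a-5p (0.0369), at 0.04 ± 0.022. Among the members themselves, miR-24-3p was closer to miR-27b-3p (0.0578) and miR-23a-3p (0.0593) than to miR-27a-3p (0.156), and miR-27a-3p and miR-23b-3p were the most unlike pair (0.290).

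Markers of other cell types are given beside these values. The epithelial differences were several times those of the family: miR-200c-3p, an epithelial miRNA, differed by -3.36 ± 0.11 and miR-205-5p, another, by -3.12 ± 0.095, against -0.52 for miR-27a-3p. In cKO the log2 signal of miR-200c-3p (-4.22 to -3.79) lay close to the floor of -4.24. It was not detected on replicate 2 of cKO E16.5, so the size of its difference is less certain. Of all tested miRNAs 45.7% were called higher (median 0.17), and without scaling or with positive control probes 6 of 385 were, so a higher call in the lists that follow is common and depends on the scale. Both endothelial miRNAs listed were higher in cKO (median 0.44), with a summed relative signal of 2.01 to 2.54 in cKO and 1.56 to 1.91 in WT; miR-126a-3p, the main endothelial miRNA, differed by 0.34 ± 0.042. Of 10 dermal mesenchyme miRNAs, 8 were higher (median 0.32, summed signal 65.0 to 71.0 in cKO and 49.9 to 56.7 in WT). All 5 skeletal muscle miRNAs were higher (median 0.32, summed signal 9.98 to 12.1 in cKO and 8.50 to 9.55 in WT). Of 7 tested blood miRNAs in a list of 8, 4 were higher, a share near that of all tested miRNAs (median 0.21), the summed signals overlapped (4.71 to 5.16 in cKO and 3.20 to 5.10 in WT), and miR-150-5p was detected on no array. The part of these cell types in the differences of the miR-23, miR-27 and miR-24 family was not tested.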

How the data were processed

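The authors extracted the array images with Agilent Feature Extraction 11.5.1.1, per the file headers. The deposited files hold a background-subtracted intensity in linear units for 56430 miRNA spots per array, not scaled between arrays. The deposited value table equals that intensity within 0.02 in 100% of spots above 0. Outlier spots (2.84% to 6.02% per array) were left out and 0 spots were saturated.

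Spots of a probe were averaged, each array was divided by its 75th percentile over 474 probes, values below a floor of -4.24 (log2) were raised to it, and log2 was taken. A probe was detected where over 50% of its spots carried the mark for being well above background. The brightest probe stood for a miRNA. A miRNA was tested where the 2 arrays of any group both detected it (385 miRNAs), with limma 3.58.1 in R 4.3.3 (4 group means, eBayes with trend, residual df 4), with Benjamini-Hochberg adjustment over all of them within each of 6 contrasts, at 0.05. The fit was tested on simulated data. Paralog ratios were tested by exact permutation in R, and sequences and figures were prepared with Python 3.11.15. Alternatives were 5 other scalings, normexp, the value table, floor, filters, probe rule, variance model, replicate block, the arrays fitted, and each array left out.

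Named miRNAs were the members, other miRNAs of their loci or seeds, and the 2 nearest profiles of each. The members and lists were chosen with earlier results of these data known. Probe coordinates are those of the files (mm9), and no genome was used here.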

Additional observations from a re-analysis of the deposited data

How the results depend on the processing

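Over both stages the count of members called was 3 to 4 with each array left out and at least 3 under each scaling. Other counts moved as follows. At E16.5 (4 called), 1 was called with the 75th percentile over all probes, 0 without scaling and 2 with only the arrays compared. At E17.5 (3 called), 1 was called with the 75th percentile over all probes, without scaling or with only the arrays compared, 4 with quantile normalization (3 lower and miR-23b-3p higher) and 5 with positive controls (all lower), and 1 to 3 with each array left out. For E17.5 against E16.5 in cKO (5 called), 0 were called with the 75th percentile over all probes or without scaling, 1 with the median, 2 with only the arrays compared and 3 with quantile normalization, and 0 to 5 with each array left out. In WT (0 called), 5 were called without scaling or with positive controls, 2 with normexp, 1 with detection on all 8 arrays, quantile normalization or the replicate block, and 0 to 1 with each array left out. Replicate numbers were not shown to pair arrays: deviations of same-numbered arrays correlated from -0.19 to 0.33 over 6 pairs of groups. The replicate block also took the calls in cKO to 4 and at E17.5 to 2.

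Signs turned for miR-23b-3p and for the difference of the genotype effect between stages. miR-23b-3p over both stages was -0.24 (75th percentile over all probes), -0.039 (median), -0.27 (no scaling) and -0.45 (positive controls), and at E17.5 -0.23, -0.038, -0.29 and -0.55 in that order. The stage difference of miR-23a-3p was -0.085, -0.11, -0.15 and -0.30 in that order and -0.10 with quantile normalization, and that of miR-27a-3p -0.056, -0.078, -0.12 and -0.28. Without scaling and with positive controls it was -0.038 and -0.20 for miR-23b-3p and -0.023 and -0.18 for miR-24-3p, and with positive controls -0.10 for miR-27b-3p. The stage change in WT with the mean over probes was -0.011 for miR-23b-3p and -0.015 for miR-27b-3p. With each array left out, values crossed 0 for the stage difference of miR-23a-3p (-0.040 to 0.075) and miR-27a-3p (-0.029 to 0.12), the WT stage change of miR-23b-3p (-0.0035 to 0.054) and miR-27b-3p (-0.050 to 0.059), miR-23b-3p at E16.5 (-0.056 to 0.0012) and miR-27b-3p at E17.5 (-0.071 to 0.0056). The genotype shift of the miR-23 ratio was -0.20 (exact permutation p = 0.0571) with the mean over probes and -0.28 to -0.19 with each array left out, and that of the miR-27 ratio -0.43 to -0.32; without a cKO array the exact p was 0.0571. Where leaving out an array left a lone array in its group, the fit took its spread from the other groups. The cause of these changes was not tested.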
